A study of Mus musculus with 20 samples.

Results

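Maternal-zygotic Ehmt2 mutant embryos were compared here with embryos of control mothers, labelled maternal wild type, that were wild type in their own genome. The comparison holds 11 of the 19 embryos of the series that have counts (20 embryos are labelled). Embryos were placed by the maternal and zygotic genotype in their labels. The Ehmt2M/Z group had 5 embryos, numbered 1, 4, 5, 7 and 9, with a maternal knockout and the zygotic genotype -/-. The Ehmt2Cntr+/+ group had 6 embryos, numbered 2, 5, 6, 7, 8 and 9, from the control mothers and with the zygotic genotype +/+. Counts of control embryo 4 were not analysed here.

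G9a, the product of Ehmt2, works with its partner GLP, the product of Ehmt1, as the main enzyme that places mono- and dimethylation on lysine 9 of histone H3 in euchromatin, a mark linked to gene repression. A growing oocyte loads its cytoplasm with RNA and protein, and the early embryo depends on this maternal supply until its own genome takes over. Cleavage-stage embryos then build new ribosomes, activate regulators of pluripotency and begin to prepare the choice between trophectoderm, epiblast and primitive endoderm.

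All embryos were collected at E2.5 at the 8-cell stage from natural matings, and each library was made from 1 embryo. Mutant embryos came from Ehmt2F/- mothers carrying Zp3-Cre, a transgene whose promoter acts in the growing oocyte, and control embryos from Ehmt2F/+ mothers that carried Zp3-Cre as well. The control mothers thus also recombined a conditional allele, and a +/+ embryo inherited their other, intact allele. A control oocyte was left with 1 functional copy after recombination, so that its maternal supply need not equal that of an unrecombined oocyte. Fathers of both groups were Ehmt2+/-, and the animals were of mixed background. The zona pellucida was removed, and embryos of normal morphology were taken. The labels give no mother or litter, so that maternal genotype and an effect of mother or litter cannot be told apart. All p-values treat the embryos as independent and measure the spread between them. The cDNA was amplified by a protocol that favours the 3′ end of transcripts.

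Total counts per embryo were between 10435051 and 30602434, and 3 counts were worth 0.0948 to 0.283 CPM (the usual unit of counts scaled to library size, here with TMM factors over all 19 embryos). Intervals and floors in the text cover counting error only. The log2 totals differed by -0.06 between the groups (exact permutation test, two-sided, p = 0.866, adjusted p = 0.922 over 6 values tested). Mitochondrial genes took 14.9% ± 4.01 (SD, n = 5) of counts in Ehmt2M/Z and 14.6% ± 4.20 (SD, n = 6) in Ehmt2Cntr+/+. Y-linked genes passed 10 CPM in 3 of 5 Ehmt2M/Z and in 4 of 6 Ehmt2Cntr+/+ embryos.

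Several measures of the libraries moved with the groups. More genes had at least 1 count in Ehmt2M/Z (13271 to 16021) than in Ehmt2Cntr+/+ embryos (12068 to 13230), also when all were brought to the lowest total (13006 to 15389 against 11938 to 12694). The log2 CPM rose by 0.30 to 0.37 per doubling of exon length in Ehmt2M/Z and by 0.34 to 0.49 in Ehmt2Cntr+/+ (exact permutation test, two-sided, p = 0.022, adjusted p = 0.065 over the 6 values). Ovgp1, the oviduct-specific glycoprotein secreted by the oviduct epithelium, had 624, 379, 75.4, 13.8 and 62.9 CPM in Ehmt2M/Z embryos 1, 4, 5, 7 and 9. It had 0.0437 to 29.3 CPM with a median of 2.31 in Ehmt2Cntr+/+ (log2 fold change 5.08, SE 1.18, adjusted p = 0.021; quasi-likelihood test of edgeR, adjusted after Benjamini and Hochberg). The highest values were those of embryos 1 and 4, and embryos 5 and 9 also lay above every control. Without embryo 1 or without embryo 4 Ovgp1 was not called (highest adjusted p = 0.058). Without both, its log2 fold change was still 2.97 (adjusted p = 0.23; edgeR), so that fit keeps part of the difference. Of the 5 oviduct markers, 1 of the 2 that could be tested was called, and their summed level was 30.1 to 658 CPM in Ehmt2M/Z and 5.96 to 116 CPM in Ehmt2Cntr+/+. Of this list Foxj1, Pax8 and Muc1 reached at most 1.04, 2.55 and 1.99 CPM in Ehmt2M/Z. In Ehmt2Cntr+/+ Foxj1 and Pax8 reached at most 0.0743 and 0.0774 CPM, and Muc1 was at 0. Of the 9 cumulus and granulosa markers, Amh, Fshr, Foxl2, Has2 and Ptx3 were at 0 in all 11 embryos, and the list summed to 41.3 to 161 CPM in Ehmt2M/Z and 21.4 to 78.4 CPM in Ehmt2Cntr+/+, with 0 of the 1 tested member called. The 5 blood markers summed to 0.902 to 3.58 CPM in Ehmt2M/Z and 0 to 1.64 CPM with a median of 0.0371 in Ehmt2Cntr+/+. Among them Hbb-bs, Hbb-bt and Ptprc were at 0 in all Ehmt2Cntr+/+ embryos. The 4 sperm markers summed to at most 1.04 CPM in Ehmt2M/Z and 0.759 CPM in Ehmt2Cntr+/+. No blood or sperm marker passed the filter on low counts, so none was tested. The part of these differences in the results below was not tested, and counts that rest on them are also given without Ehmt2M/Z embryos 1 and 4.

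All 13 markers of 8-cell embryos were present with a median of at least 1 CPM in both groups. Their summed level was 5489 to 6592 CPM in Ehmt2M/Z and 3484 to 5732 CPM in Ehmt2Cntr+/+. Of these markers Tead4, Tfap2c and Klf17 were called higher and Klf5 lower in Ehmt2M/Z. The 8 markers of oocyte and polar body summed to 110.4 to 217 CPM and 49.7 to 157 CPM, with Oosp1 called higher.

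Ehmt2 (ENSMUSG00000013787, chromosome 17, 34898469 to 34914052) had 59.7, 78.1, 80.8, 84.3 and 112 CPM in Ehmt2M/Z and 64.4 to 249 CPM with a median of 107 in Ehmt2Cntr+/+. The groups overlapped, and the gene was not called (log2 fold change -0.77, SE 0.34, adjusted p = 0.21). On its log2 CPM the groups differed by -0.60 (exact permutation test, two-sided, p = 0.139, adjusted p = 0.277 over the 6 values). The counts are summed over all exons of the gene and cannot check the deleted part, so that the mutant state rests on the genotype in the labels. Its partner Ehmt1 had 60.5 to 115 CPM and 40.5 to 103 CPM (log2 fold change 0.25, SE 0.30, adjusted p = 0.7). Of 28 tested writers, readers and erasers of H3K9 methylation, 0 were called by edgeR, beside 6.21% of all genes tested. With 28 genes, 0 calls are near that share and do not show that these genes are unchanged. Their median log2 fold change was -0.24, beside -0.07 over all genes. An unadjusted p under 0.05 was found for 5 (1 higher, 4 lower), and DESeq2 called 1 lower. Without control 6 edgeR called 1 higher and 1 lower, and without control 7 it called 1 lower. Trim28, the corepressor that recruits H3K9 methyltransferases, stood at 598 to 699.6 CPM in Ehmt2M/Z and 429 to 778 CPM in Ehmt2Cntr+/+ (log2 fold change -0.02, SE 0.19, adjusted p = 0.97).

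Gene expression differed widely between the groups. Of 11820 genes that passed the filter on low counts, 734 were differentially expressed at an adjusted p under 0.05, which is 6.21% of the genes tested. Of these, 334 were upregulated in Ehmt2M/Z (2.83% of genes tested, median log2 fold change 1.34) and 400 downregulated (3.38%, median -1.49). A log2 change of 1 or more in size was found for 275 upregulated (2.33%) and 348 downregulated genes (2.94%), 5.27% of the genes tested. Protein-coding genes made up 692 of the 734. The lowest embryo of one group lay above the highest of the other in 6.85% of all genes tested (4.19% higher and 2.66% lower in Ehmt2M/Z) and in 518 of the 734. In bulk RNA of an embryo, fewer cells that express a gene and less of its RNA per cell cannot be told apart. The first principal component held 20.7% of the variance and separated the groups (scores 38.1 to 93.0 in Ehmt2M/Z, -118 to -6.71 in Ehmt2Cntr+/+; exact permutation test, two-sided, p = 0.0043, the smallest that 462 splits can give, adjusted p = 0.026). Without Ehmt2M/Z embryos 1 and 4 together 98 genes were called, and all 734 kept their direction. The 734 were chosen by their difference in these same embryos, so that the kept direction is no separate support. Leaving out 1 embryo took the number to 333 without Ehmt2M/Z 4, 386 without Ehmt2M/Z 5, 407 without Ehmt2M/Z 1, 437 without Ehmt2M/Z 9 and 433 without control 8.

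**Figure D1:**
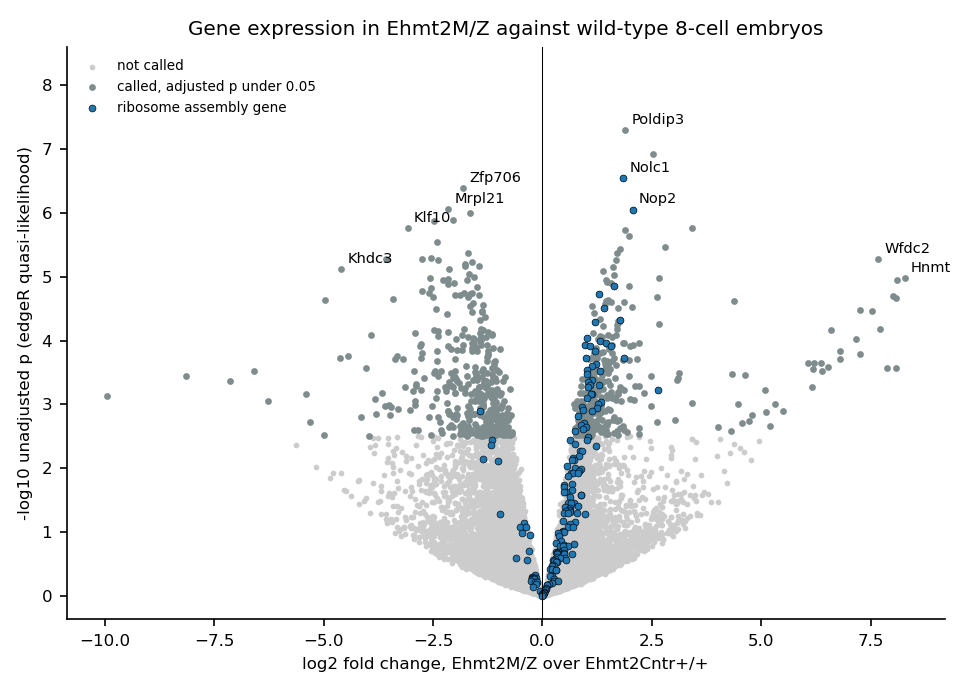
Each point is 1 of 11820 genes, with the log2 fold change of Ehmt2M/Z over Ehmt2Cntr+/+ on the x axis and -log10 of the unadjusted p of the edgeR test on the y axis. Dark grey points are the 734 called genes, and blue points are the 174 tested ribosome assembly genes, of which 145 lie to the right of 0.

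Many genes of ribosome assembly were upregulated. Ribosomes are built in the nucleolus, where RNA polymerase I transcribes the rRNA precursor, small nucleolar RNPs (snoRNPs) guide its modification, the small subunit processome and the large subunit factors fold and cut it, and the RNA exosome trims the ends. Of 174 tested members of the 5 lists that cover these steps, 42 were upregulated and 1 was downregulated. This is 24.1% upregulated beside 2.83% of all genes tested. The median log2 fold change of the 174 was 0.53, beside -0.07 over all genes, and 145 of the 174 were above 0. In 49 of the 174 every mutant lay above every control, beside 4.19% of all genes, and in 0 the reverse. These lists were chosen with a rise of such genes already known from the pooled mutants, so the count is no independent evidence of a direction. Without Ehmt2M/Z embryos 1 and 4, 4 of the members were called, 149 of 174 stayed above 0 and the median was 0.58. Single embryos left out took the number to 26 in 2 cases, without Ehmt2M/Z embryo 5 and without embryo 9.

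In the snoRNP list, 5 of 19 tested proteins were upregulated and 0 downregulated (0 also at an unadjusted p under 0.05 and by DESeq2). The 5 became 2 without Ehmt2M/Z embryo 1, 4 or 9, 3 without Ehmt2M/Z embryo 5 or control 8, and 1 without Ehmt2M/Z embryos 1 and 4 together. Nolc1 (ENSMUSG00000015176, chromosome 19, 46075863 to 46085528), a nucleolar phosphoprotein that helps to mature snoRNPs, had 2002, 2157, 2107, 1640.4 and 2904 CPM in the Ehmt2M/Z embryos. It had 387 to 765 CPM with a median of 572 in Ehmt2Cntr+/+. Every mutant lay above every control (log2 fold change 1.84, SE 0.21, adjusted p = 0.0011). Fbl, the methyltransferase fibrillarin of box C/D snoRNPs, had 21.97, 19.99, 8.82, 5.37 and 16.2 CPM against 1.24 to 4.097 CPM with a median of 2.06 (log2 fold change 2.65, SE 0.62, adjusted p = 0.021). The groups did not overlap, yet the call was lost without Ehmt2M/Z embryos 1, 4 or 9 (highest adjusted p = 0.07). Nop56, the core protein beside it, had 211 to 405 CPM in Ehmt2M/Z and 95.3 to 137 CPM in Ehmt2Cntr+/+ (log2 fold change 1.302, SE 0.21, adjusted p = 0.0038). Its introns hold snoRNA genes, and 4 annotated genes overlap its exons, so that part of its reads cannot be assigned to it alone. Nhp2, a protein of box H/ACA snoRNPs, stood at 423 to 788 CPM and 255 to 693 CPM (log2 fold change 0.11, SE 0.26, adjusted p = 0.87).

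The large subunit list had 17 of 56 tested members upregulated and 0 downregulated (0 also at an unadjusted p under 0.05 and by DESeq2), with a median of 0.63. The 17 became 9 without Ehmt2M/Z embryo 5, 10 without control 8, 11 without Ehmt2M/Z embryo 4 or 9, and 1 without Ehmt2M/Z embryos 1 and 4 together. Nop2 (ENSMUSG00000038279, chromosome 6, 125131909 to 125144753), an RNA methyltransferase of the large subunit rRNA, had 425, 629.7, 541, 423 and 805 CPM in Ehmt2M/Z and 97.4 to 228 CPM with a median of 112 in Ehmt2Cntr+/+ (log2 fold change 2.06, SE 0.26, adjusted p = 0.0017). All mutants were above control 6, the highest control. The helicase Ddx54 (log2 fold change 1.21, SE 0.22, adjusted p = 0.0065) and the helicase Ddx27 (log2 fold change 1.02, SE 0.19, adjusted p = 0.0086) were higher in every mutant than in every control. Ftsj3, a methyltransferase, had 289 to 404 CPM against 104 to 210.1 CPM (log2 fold change 1.08, SE 0.21, adjusted p = 0.0094). Pes1 (1.096), Bop1 (0.92) and Nop53 (1.05) also passed the test, at the log2 fold changes given. Wdr12 of the same list did not, with means of 198 and 193 CPM (log2 fold change -7.0e-05, SE 0.25, adjusted p = 0.9999). The helicase Ddx21 stood at 931 to 1268 CPM and 546 to 961 CPM and did not pass (log2 fold change 0.55, SE 0.18, adjusted p = 0.092).

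In the small subunit list, 11 of 51 tested members were upregulated and 1 was downregulated, with a median of 0.59. The 11 became 8 to 13 with 1 embryo left out and 2 without Ehmt2M/Z embryos 1 and 4 together. Rcl1 (ENSMUSG00000024785, chromosome 19, 29101375 to 29143843), a protein of the processome that acts in cleavage of the precursor, had 239.9, 306, 412, 285 and 543 CPM in Ehmt2M/Z and 70.4 to 145 CPM with a median of 112 in Ehmt2Cntr+/+ (log2 fold change 1.64, SE 0.26, adjusted p = 0.0034), without overlap. Nob1, the nuclease that makes the mature end of the small subunit rRNA, had 339.7 to 681 CPM and 73.1 to 245 CPM (log2 fold change 1.46, SE 0.28, adjusted p = 0.0094). Rrp7a had 59.1 to 189 CPM and 20.7 to 42.5 CPM (log2 fold change 1.78, SE 0.32, adjusted p = 0.0062), and Noc4l 175 to 289 CPM and 51.1 to 118 CPM (log2 fold change 1.32, SE 0.25, adjusted p = 0.009). Nol6, another processome protein, was the member that fell (-1.42, adjusted p = 0.03). The number downregulated was 0 without control 6, 7 or 8 or Ehmt2M/Z embryo 1, 5 or 7, and without Ehmt2M/Z embryos 1 and 4 together. Wdr43, with high counts, stood at 789 to 1463 CPM and 805 to 1678 CPM (log2 fold change -0.18, SE 0.24, adjusted p = 0.75).

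Of the polymerases I and III, 6 of 34 tested subunits and factors were upregulated and 0 downregulated (2 at an unadjusted p under 0.05 and 2 by DESeq2), with a median of 0.46. The 6 became 2 without Ehmt2M/Z embryo 9, 3 without control 7, control 8 or Ehmt2M/Z embryo 5, and 0 without Ehmt2M/Z embryos 1 and 4 together. Rrn3, the initiation factor that joins polymerase I to its promoter, had 452, 488, 433, 458 and 616 CPM in Ehmt2M/Z and 172 to 352 CPM with a median of 224 in Ehmt2Cntr+/+ (log2 fold change 1.02, SE 0.22, adjusted p = 0.015). Polr1e, a polymerase I subunit, had 147 to 224 CPM and 75.01 to 132 CPM (log2 fold change 1.01, SE 0.22, adjusted p = 0.016). Ubtf, which binds the rRNA gene promoter, stood at 672 to 1303 CPM and 718 to 1061 CPM (log2 fold change 0.01, SE 0.21, adjusted p = 0.99). In the exosome list 3 of 14 tested members were upregulated and 0 downregulated (0 also at an unadjusted p under 0.05 and by DESeq2), with a median of 0.05, and 0 were called without Ehmt2M/Z embryos 1 and 4 together. They were Exosc10, a nuclease (log2 fold change 1.41, SE 0.24, adjusted p = 0.0045), and the ring and cap subunits Exosc4 (log2 fold change 1.04, SE 0.24, adjusted p = 0.018) and Exosc2 (log2 fold change 1.86, SE 0.38, adjusted p = 0.012). The call of Exosc4 was lost without Ehmt2M/Z embryo 5 (adjusted p = 0.051).

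The level of the 174 genes was also read in each embryo, as the median over genes of log2(CPM + 1) minus the mean of the Ehmt2Cntr+/+ embryos. It was 0.55, 0.62, 0.77, 0.46 and 0.84 in Ehmt2M/Z embryos 1, 4, 5, 7 and 9, beside 0.01 to 0.20 over all genes tested in the same embryos. It was -0.16 to 0.20 in the Ehmt2Cntr+/+ embryos. Ehmt2M/Z embryos 5 and 9, with 75.4 and 62.9 CPM of Ovgp1, had the highest levels. Embryos 1 and 4, with the most Ovgp1, lay between the others, and embryo 7, with the least (13.8 CPM), had the lowest level. The rise of log2 CPM per doubling of exon length was 0.37, 0.33, 0.31, 0.35 and 0.30 in Ehmt2M/Z embryos 1, 4, 5, 7 and 9. The part of either measure in these levels was not tested. Levels were 0.75, 0.72, 0.47, 0.36 and 0.35 in Ehmt2M/+ embryos 2, 3, 6, 8 and 10. These embryos share the maternal genotype but carry 1 functional zygotic copy. Their Ovgp1 was 893, 2723, 132, 23.4 and 9.52 CPM in this order. Embryos 2 and 3, with the most Ovgp1, thus had the highest levels, and embryo 10, with the least, the lowest. Levels were 0.23, -0.05 and 0.23 in Ehmt2Cntr+/- embryos 1, 3 and 10, with 5.15, 0.772 and 399.5 CPM of Ovgp1. The part of Ovgp1 in the levels of these embryos was not tested either.

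**Figure D2:**
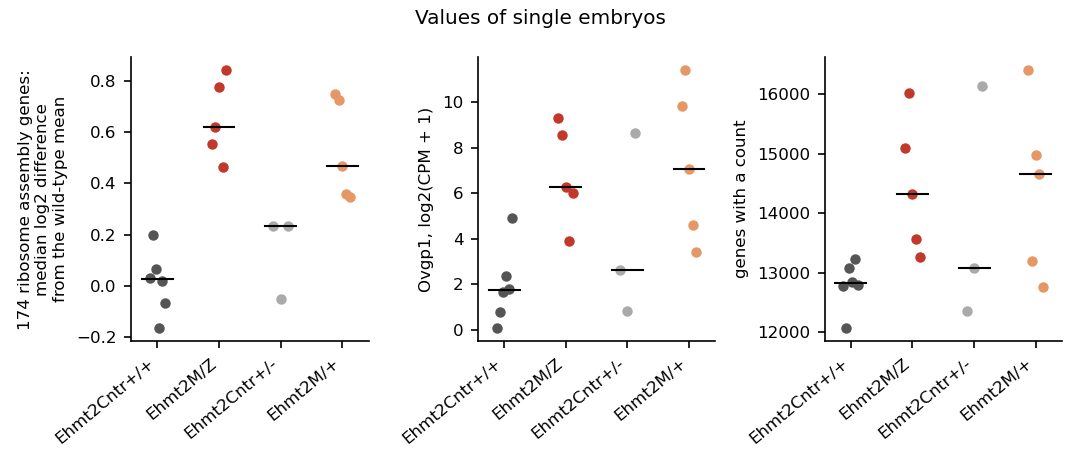
Each point is 1 embryo and each line a group median, for the median log2 difference of 174 ribosome assembly genes from the Ehmt2Cntr+/+ mean (left), the log2(CPM + 1) of Ovgp1 (middle) and the number of genes with a count (right). The 5 Ehmt2M/Z embryos lie above all 6 Ehmt2Cntr+/+ embryos in the left and right panels, whereas Ehmt2M/Z embryo 7, at 13.8 CPM, lies below control 9, at 29.3 CPM, in the middle one.

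Promoters of these genes are shown because many of them moved together. RefSeq windows of 250 bases before to 50 after the start (GRCm38.p6) were matched by symbol for 8862 tested genes. The motif CCGGAAG, bound by ETS factors, was in 43.4% of 145 windows of tested ribosome assembly genes on either strand, beside 20.02% of windows of all genes tested and 9.12% of all 27025 windows. It was in 16 of 35 windows of members that were called higher and in 47 of the other 110. The E-box CACGTG, which does not overlap it in letters, was in 19.3% of the 145 and in 10.6% of all tested. Among the 734 genes, CCGGAAG was in 29.5% of 261 windows of upregulated and 16.6% of 296 windows of downregulated genes. GGGCGG, the GC box, was in 61.3% and 75.3%, and in 64.6% of all tested. The 120 bases before the start are given for the 3 upregulated ribosome assembly genes with the smallest p whose stretch is in the table and holds no annotated exon, and for the first such downregulated gene, 5′ to 3′, with CCGGAAG and CACGTG in capitals.
Nolc1, chr19:46075727-46075846, plus strand: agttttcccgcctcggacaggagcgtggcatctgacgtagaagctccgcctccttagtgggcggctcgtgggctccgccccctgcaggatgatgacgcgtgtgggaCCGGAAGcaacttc
Nop2, chr6:125131763-125131882, plus strand: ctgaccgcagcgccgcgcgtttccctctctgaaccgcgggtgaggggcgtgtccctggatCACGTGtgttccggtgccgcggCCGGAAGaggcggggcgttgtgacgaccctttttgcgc
Rcl1, chr19:29101255-29101374, plus strand: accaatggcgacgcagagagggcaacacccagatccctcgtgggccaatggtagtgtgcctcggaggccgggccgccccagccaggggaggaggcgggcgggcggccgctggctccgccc
Gnb1, chr4:155491241-155491360, plus strand: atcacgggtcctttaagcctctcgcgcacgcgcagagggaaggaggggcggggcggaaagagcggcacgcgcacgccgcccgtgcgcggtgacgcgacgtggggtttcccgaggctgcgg
The Nolc1 stretch held CCGGAAG beginning 14 bases before the start. The Nop2 stretch held CCGGAAG at 38 and CACGTG at 60 bases before it. Neither motif occurred in the stretches of Rcl1, which rose, and Gnb1, which fell.

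The 12 upregulated genes ranked first by p, among those with a log2 change of 1 or more, included Nolc1 and Nop2, and Poldip3, Snrpd3, Rnps1, Rbm42 and Rexo4, which encode proteins that handle RNA. Poldip3 (ENSMUSG00000041815, chromosome 15, 83125978 to 83149384), a protein that links the exon junction complex to translation, had 377, 363, 344, 415 and 355 CPM in Ehmt2M/Z. It had 76.9 to 131 CPM with a median of 94.9 in Ehmt2Cntr+/+ (log2 fold change 1.89, SE 0.19, adjusted p = 6.0e-04). The mutants were close to each other and all above control 6. Snrpd3, an Sm core protein of the spliceosome, had 56.1, 69.6, 151, 113 and 218 CPM against 9.94 to 27.3 CPM with a median of 16.6 (log2 fold change 2.79, SE 0.40, adjusted p = 0.0027). Rnps1, a splicing activator of the exon junction complex, had 87.4 to 159 CPM against 27.8 to 48.6 CPM (log2 fold change 1.68, SE 0.25, adjusted p = 0.0027). Paf1, which names a complex that travels with RNA polymerase II, had 98.6 to 198 CPM against 31.3 to 56.3 CPM (log2 fold change 1.77, SE 0.25, adjusted p = 0.0027). Rbm42, an RNA-binding protein, had 430.4 to 879 CPM against 155 to 279 CPM (log2 fold change 1.69, SE 0.25, adjusted p = 0.0027). As 73.6% of the 50-base windows of its transcripts also occur in another annotated gene, its count is uncertain. Rexo4, an exonuclease-like protein, had a log2 fold change of 1.39. Kif22 (ENSMUSG00000030677, chromosome 7, 127027732 to 127042420), a chromosome-bound kinesin of mitosis, had 855, 844, 468, 368 and 966 CPM against 138 to 261 CPM with a median of 152 (log2 fold change 1.98, SE 0.27, adjusted p = 0.0021). Ptdss2, which makes phosphatidylserine, had 823 to 1247 CPM against 236 to 573 CPM (log2 fold change 1.61, SE 0.24, adjusted p = 0.0029).

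Of these 12 genes, 2 were nearly silent in controls. Hnmt (ENSMUSG00000026986, chromosome 2, 24002910 to 24049394), the histamine methyltransferase, had 3.58, 5.496, 6.23, 5.33 and 4.896 CPM in Ehmt2M/Z, whereas in Ehmt2Cntr+/+ 1 count was found in all 6 embryos together. The pooled ratio was 591 with a 95% counting interval of 106 to 23402 (log2 fold change 8.28, SE 1.29, adjusted p = 0.0031). Wfdc2, a secreted protease inhibitor of epithelia, had 15.1, 9.73, 5.24, 1.598 and 14.04 CPM in Ehmt2M/Z and at most 0.0864 CPM in Ehmt2Cntr+/+ (4 counts in all). The pooled ratio was 243 with a 95% counting interval of 94.4 to 893. Ovgp1, given above, was higher in the same embryos, and the part of other cells in Wfdc2 was not tested. Both genes passed the filter on low counts only through the mutants, where they are high, so that a tested gene of this kind had to differ, and its call is no separate support.

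Other called genes were also nearly absent from one group. At most 3 counts in every Ehmt2Cntr+/+ embryo were found for 17 upregulated genes, and at most 3 in every Ehmt2M/Z embryo for 4 downregulated genes. All of these passed the filter only through the group where they are high, and the filter and the unequal group sizes bear on both numbers, which are therefore not compared. Besides Hnmt and Wfdc2, these examples were named after their values were seen. Prl7b1, a prolactin family gene, had 3.49, 2.02, 14.8, 6.49 and 6.76 CPM in Ehmt2M/Z and 2 counts in all controls, a ratio of 329.5 with a 95% counting interval of 90.8 to 2728. Nat1, an arylamine acetyltransferase, had 3.39, 4.49, 4.26, 3.92 and 1.74 CPM and 2 counts, a ratio of 211 with a 95% counting interval of 57.9 to 1746. Cox7b2, a testis form of a cytochrome oxidase subunit, had 2.07, 4.896, 1.37, 8.47 and 1.35 CPM and 1 count. In the other direction, Spi1, the myeloid factor PU.1, had 0.350 to 13.6 CPM with a median of 5.88 in Ehmt2Cntr+/+ and 5 counts in all Ehmt2M/Z embryos, a ratio of 106 with a 95% counting interval of 45.1 to 327. Plk5, a polo-like kinase, had 0 to 28.8 CPM with a median of 2.64 in controls and 0 counts in the mutants, which makes it at least 163-fold higher in controls against a floor of 3 counts over the mutant group. Foxf1, a forkhead factor, had 0 to 15.6 CPM with a median of 5.66 and 3 counts. In these 3 the controls themselves spread from below 1 CPM upward, and each was tested in 6 of 11 fits without 1 embryo, where the calls of Foxf1 (without Ehmt2M/Z embryo 4) and Plk5 (without Ehmt2M/Z embryos 4 or 5) were lost (highest adjusted p = 0.051 and 0.056).

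**Figure D3:**
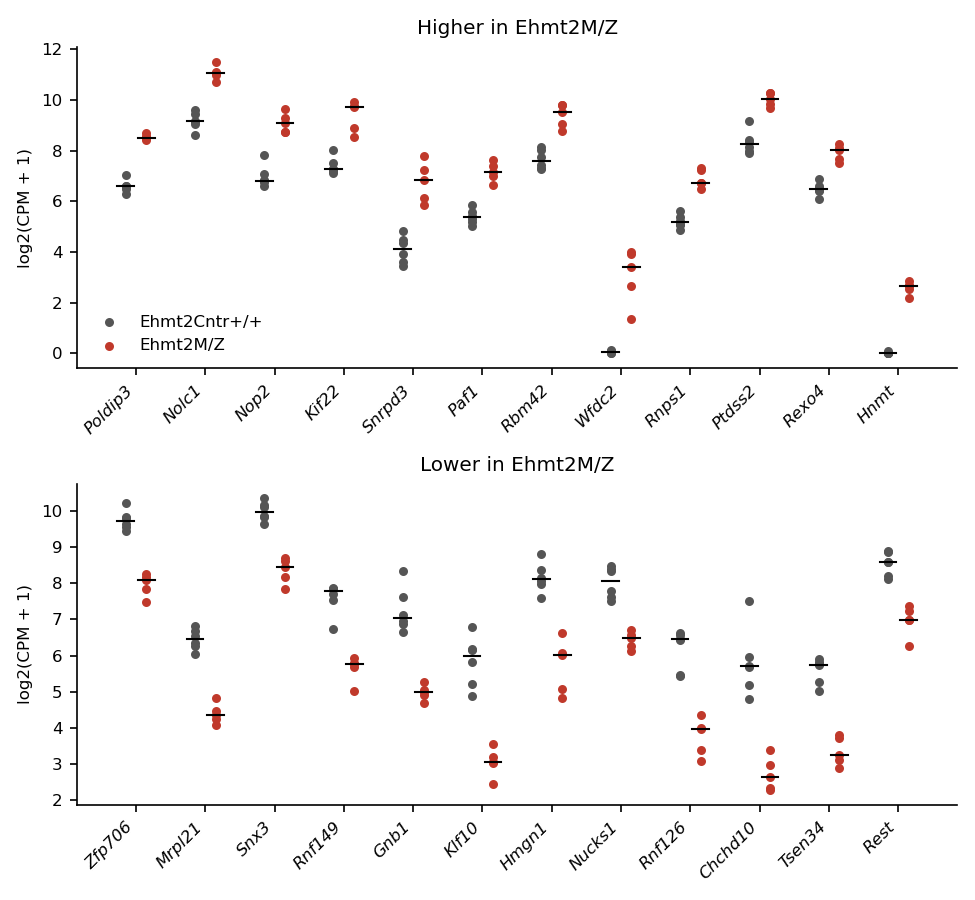
The log2(CPM + 1) of the 12 upregulated (top) and 12 downregulated genes (bottom) ranked first by p is shown for each of 6 Ehmt2Cntr+/+ (grey) and 5 Ehmt2M/Z embryos (red), with group medians as lines. In all 24 genes the groups do not overlap, and Hnmt in Ehmt2Cntr+/+ lies at or near 0.

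The 12 downregulated genes ranked first by p, by the same rule, included Zfp706, Klf10, Rest, Hmgn1 and Nucks1. Zfp706 (ENSMUSG00000062397, chromosome 15, 36997031 to 37007402), a small zinc finger protein, had 178, 229.9, 289, 272 and 304 CPM in Ehmt2M/Z. It had 701 to 1201 CPM with a median of 843 in Ehmt2Cntr+/+, without overlap (log2 fold change -1.82, SE 0.22, adjusted p = 0.0012). Klf10, a transcription factor induced by TGF-beta, had 7.07, 8.09, 7.296, 4.41 and 10.8 CPM against 28.3 to 109 CPM with a median of 63.1 (log2 fold change -3.08, SE 0.41, adjusted p = 0.0018). Rest, the repressor of neuronal genes, had 165, 148, 126, 125 and 76.1 CPM against 277 to 476 CPM with a median of 385 (log2 fold change -1.62, SE 0.24, adjusted p = 0.0028). Hmgn1, a nucleosome-binding protein that loosens chromatin, had 98.3, 65.8, 27.1, 63.5 and 32.8 CPM against 192 to 447 CPM with a median of 275 (log2 fold change -2.41, SE 0.34, adjusted p = 0.0024), and Nucks1, a DNA-binding nuclear protein, 68.4 to 103 CPM against 183 to 353 CPM (log2 fold change -1.69, SE 0.24, adjusted p = 0.0027).

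Several others act in membranes, signalling and protein turnover. Snx3 (ENSMUSG00000019804, chromosome 10, 42502030 to 42535381), a sorting nexin of endosomes, had 417, 350.1, 229, 289 and 395 CPM in Ehmt2M/Z and 802 to 1313 CPM with a median of 1018 in Ehmt2Cntr+/+ (log2 fold change -1.67, SE 0.21, adjusted p = 0.0017). Gnb1, a beta subunit of heterotrimeric G proteins, had 24.9 to 37.7 CPM against 98.9 to 326 CPM (log2 fold change -2.47, SE 0.33, adjusted p = 0.0017). The ubiquitin ligases Rnf149 (log2 fold change -2.04, SE 0.27, adjusted p = 0.0017) and Rnf126 (log2 fold change -2.54, SE 0.37, adjusted p = 0.0027) were lower in every mutant than in every control. Chchd10, a mitochondrial protein of the intermembrane space, had 5.19, 3.82, 6.76, 9.34 and 4.06 CPM against 27.02 to 182 CPM with a median of 51.2 (log2 fold change -3.58, SE 0.53, adjusted p = 0.0027). Tsen34, a subunit of the tRNA splicing endonuclease, had 6.41 to 12.9 CPM against 31.2 to 59.2 CPM (log2 fold change -2.38, SE 0.35, adjusted p = 0.0027). For Rnf149 and Tsen34, 22.6% and 27.3% of 50-base windows occur in another gene. All 24 genes of these top sets kept their call in each of 11 fits without 1 embryo and in the fit without Ehmt2M/Z embryos 1 and 4, which for Hnmt and Wfdc2 is subject to the filter as said. The 24 were ranked by p in these same embryos, so that their kept calls are in part given by that choice.

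Regulators of pluripotency changed downward where they changed. Of 25 tested members, 4 were downregulated and 0 upregulated (1 at an unadjusted p under 0.05, 0 by DESeq2), which is 16% lower beside 3.38% of all genes, and the median was -0.44. Klf5, a Krüppel-like factor of early embryos, had 37.7, 66.2, 114, 128 and 85.1 CPM in Ehmt2M/Z and 157 to 354 CPM with a median of 227 in Ehmt2Cntr+/+ (log2 fold change -1.47, SE 0.32, adjusted p = 0.017). All mutants were below all controls. Sall4, a zinc finger factor of the pluripotency network, had 256, 323, 372, 338 and 245 CPM against 425 to 1354 CPM with a median of 628 (log2 fold change -1.28, SE 0.29, adjusted p = 0.018), also without overlap. Klf4 had 65.1, 24.1, 28.96, 54.8 and 112 CPM against 95.4 to 262 CPM with a median of 156 (log2 fold change -1.64, SE 0.40, adjusted p = 0.025), with Ehmt2M/Z embryo 9 inside the control range. Tdgf1, the Nodal co-receptor Cripto, had 38.6, 63.9, 37.01, 43.2 and 24.99 CPM against 49.5 to 154 CPM with a median of 93.1 (log2 fold change -1.25, SE 0.35, adjusted p = 0.045). The calls were lost without Ehmt2M/Z embryo 4 for Klf5, without Ehmt2M/Z embryo 1 for Sall4, without control embryo 8 or without Ehmt2M/Z embryos 1, 4, 5 or 7 for Klf4, and without control embryos 2, 5, 6 or 7 or without Ehmt2M/Z embryos 1, 4, 5, 7 or 9 for Tdgf1 (highest adjusted p = 0.11). The list had 1 call without Ehmt2M/Z embryo 1 or 4 and 2 without embryo 5, and without embryos 1 and 4 together none of the 4 passed (0 of 25 called). Pou5f1, which encodes OCT4, stood at 81.2 to 192 CPM and 59.1 to 372 CPM (log2 fold change -0.37, SE 0.44, adjusted p = 0.7), and Nanog at 11.1 to 53.6 CPM and 13.5 to 92.9 CPM (log2 fold change -0.44, SE 0.48, adjusted p = 0.68), with overlapping groups in both.

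The primitive endoderm list had 16 tested members, of which 3 were downregulated and 2 upregulated, beside 2.83% of all genes higher and 3.38% lower, with a median of -1.51. Both numbers were 0 without Ehmt2M/Z embryo 1, Ehmt2M/Z embryo 4 or control 8. Without control 7 the numbers were 0 and 1, and the median was -0.97. Gata6, the factor that drives this lineage, had 35.6, 84.6, 97.7, 410.5 and 212 CPM in Ehmt2M/Z and 303 to 875 CPM with a median of 715 in Ehmt2Cntr+/+ (log2 fold change -1.95, SE 0.51, adjusted p = 0.034). Ehmt2M/Z embryo 7, with the highest mutant value, lay inside the control range. Fgfr1, a receptor for FGF signals that favour primitive endoderm, had 30.1, 37.5, 31.6, 39.2 and 75.4 CPM against 59.2 to 303 CPM with a median of 100.2 (log2 fold change -1.72, SE 0.44, adjusted p = 0.032), again with 1 mutant, embryo 9, inside the control range. Fgfr2, the other such receptor, had 11.5, 5.65, 43.9, 26.8 and 11.98 CPM against 32.4 to 114 CPM with a median of 70.5 (log2 fold change -1.84, SE 0.50, adjusted p = 0.041), with embryo 5 inside that range. Gata4, a later factor of the lineage, went the other way, with 307, 243, 254, 360.2 and 621 CPM against 84.8 to 259.8 CPM with a median of 159 (log2 fold change 1.09, SE 0.30, adjusted p = 0.044). Lrp2, an endocytic receptor also made by several epithelia, had 4.903, 5.401, 5.396, 1.26 and 10.6 CPM against 0 to 0.817 CPM (log2 fold change 4.795, SE 1.24, adjusted p = 0.033). The same embryos had Ovgp1, whose part in this was not tested. Sox17 was not tested and reached at most 3.28 CPM in Ehmt2M/Z and 0.503 CPM in Ehmt2Cntr+/+.

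Genes of the trophectoderm list were called in 2 of 21 tested cases, both higher, beside 2.83% of all genes, while the median was -0.36 (0 lower, with 3 at an unadjusted p under 0.05 and 2 by DESeq2). The number called higher was 0 without control 2, control 8 or Ehmt2M/Z embryo 4 or 5, and 1 without any other single embryo. Tead4, which is needed for trophectoderm formation, had 445, 549, 451, 518 and 286 CPM against 155 to 306 CPM with a median of 265 (log2 fold change 0.86, SE 0.23, adjusted p = 0.04). Tfap2c, an AP-2 factor upstream of this lineage, had 293, 433, 342, 468 and 601 CPM against 136 to 297 CPM with a median of 211 (log2 fold change 0.96, SE 0.27, adjusted p = 0.046). Ehmt2M/Z embryo 9 overlapped the controls for Tead4 and embryo 1 for Tfap2c. Cdx2, the later trophectoderm factor, had 0 counts in all Ehmt2M/Z embryos and 0 to 31.9 CPM in Ehmt2Cntr+/+, above 1 CPM in embryos 6, 7 and 8. Sox2 had 0 counts in all Ehmt2M/Z embryos and 0 to 8.75 CPM in Ehmt2Cntr+/+. Both failed the filter on low counts and were not tested. Leaving out 1 embryo ended most of the lineage calls. Gata6 passed in 3 of 11 fits without 1 embryo, Fgfr1 in 4, Fgfr2 in 3, Gata4 in 1, Lrp2 in 4, Tead4 in 3 and Tfap2c in 3. Gata6 was lost without control embryos 5, 6, 7 or 8 or without Ehmt2M/Z embryos 1, 4, 5 or 9, and Fgfr1 without control embryos 6, 7 or 8 or without Ehmt2M/Z embryos 1, 4, 5 or 7. Fgfr2 was lost without control embryos 2, 5, 7 or 8 or without Ehmt2M/Z embryos 1, 4, 7 or 9, and Gata4 without control embryos 2, 5, 7, 8 or 9 or without Ehmt2M/Z embryos 1, 4, 5, 7 or 9. Lrp2 was lost without control embryos 5, 6 or 8 or without Ehmt2M/Z embryos 1, 4, 5 or 9. Tead4 was lost without control embryos 2, 5, 6 or 8 or without Ehmt2M/Z embryos 1, 4, 5 or 7, and Tfap2c without control embryos 2, 7, 8 or 9 or without Ehmt2M/Z embryos 4, 5, 7 or 9. The highest adjusted p in these fits was 0.14, for Gata4, and none of the 7 was called without Ehmt2M/Z embryos 1 and 4.

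**Figure D4:**
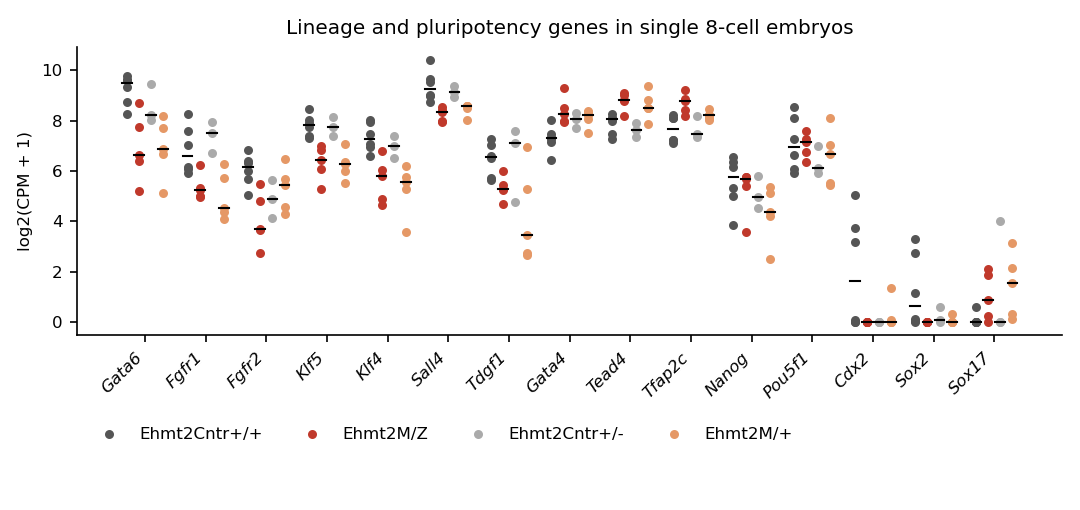
The log2(CPM + 1) of 15 lineage and pluripotency genes is shown for each embryo of the 4 genotypes, with group medians as lines. Klf5 and Sall4 are lower in all 5 Ehmt2M/Z (red) than in all 6 Ehmt2Cntr+/+ embryos (dark grey), and Cdx2 and Sox2 are at 0 in all Ehmt2M/Z embryos.

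Cell cycle genes moved in both directions. Of 41 tested members, 3 were upregulated and 2 downregulated, beside 2.83% of all genes higher and 3.38% lower, with a median of -0.05. The 2 became 1 without Ehmt2M/Z embryo 4, 5 or 9. Aurka, the mitotic kinase of the spindle poles, had 787, 931, 844, 611 and 1258 CPM in Ehmt2M/Z and 231 to 494 CPM with a median of 285 in Ehmt2Cntr+/+ (log2 fold change 1.43, SE 0.24, adjusted p = 0.0043). Cdc20, the activator of the anaphase-promoting complex, had 1252, 1252, 974, 729 and 1698 CPM against 233 to 545 CPM with a median of 402 (log2 fold change 1.51, SE 0.25, adjusted p = 0.004). Neither overlapped between groups. Ccne1, the cyclin E1 of S-phase entry, had 164, 199.7, 131, 243 and 109 CPM against 329.5 to 684 CPM with a median of 435 (log2 fold change -1.58, SE 0.27, adjusted p = 0.0042). Ccnd3, cyclin D3, was lower as well (log2 fold change -1.54, SE 0.36, adjusted p = 0.021), although the call was lost without Ehmt2M/Z embryos 4, 5 or 9 (highest adjusted p = 0.06), and Cdk2, the partner kinase of cyclin E, was higher (1.62, adjusted p = 0.024). The mitotic cyclin Ccnb1 stood at 582 to 859.6 CPM and 449 to 1168 CPM (log2 fold change -0.13, SE 0.23, adjusted p = 0.82). Trp53, which encodes p53, was the called member among 25 tested genes of the p53 list (4.00% beside 6.21% of all genes), with 12.2, 12.1, 0.532, 2.18 and 0.902 CPM against 10.1 to 85.7 CPM with a median of 36.00 (log2 fold change -2.95, SE 0.82, adjusted p = 0.045). It passed in 3 of 11 fits, being lost without control embryos 2, 6 or 8 or without Ehmt2M/Z embryos 1, 4, 5, 7 or 9 (highest adjusted p = 0.097). No other of the 25 was called by edgeR in either direction, whereas DESeq2 called 2 higher and 3 lower in all.

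Among 39 tested histone variants, linker histones and histone chaperones, 4 were downregulated and 2 upregulated, beside 2.83% of all genes higher and 3.38% lower, with a median of 0.01. The 4 became 2 without Ehmt2M/Z embryo 5, and the 2 became 1 without controls 6, 7, 8 or 9 or without Ehmt2M/Z embryos 1, 4, 5 or 9, each left out alone. Beside Hmgn1, the chaperones Nap1l1 (423, 284, 441, 472 and 176 CPM against 715 to 1455 CPM with a median of 1094; log2 fold change -1.61, SE 0.28, adjusted p = 0.005) and Asf1a (1.23, 1.39, 6.92, 12.3 and 10.2 CPM against 11.96 to 70.1 CPM with a median of 51.1; log2 fold change -2.89, SE 0.66, adjusted p = 0.019) were lower, as was H2afy, which encodes macroH2A1 (-3.13, adjusted p = 0.02). Nap1l4, a relative of Nap1l1, was higher (198, 162, 139, 121 and 178 CPM against 43.2 to 80.3 CPM with a median of 52.7; log2 fold change 1.47, SE 0.23, adjusted p = 0.0032), and so was the chaperone Nasp (0.98, adjusted p = 0.035). Of 50-base windows, 43.1% of those of Asf1a and 21.2% of those of Nap1l1 occur in another gene, and the call of Asf1a was lost without Ehmt2M/Z embryo 5 (adjusted p = 0.051). H3f3b, which encodes H3.3, stood at 569 to 1054 CPM and 323 to 996 CPM (log2 fold change 0.21, SE 0.30, adjusted p = 0.76).

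Splicing proteins were called in 10 of 75 tested cases, 6 higher and 4 lower, beside 2.83% of all genes higher and 3.38% lower, with a median of 0.18. The 4 lower became 0 without Ehmt2M/Z embryo 1, 4 or 9, 1 without control 5, 7 or 8 or Ehmt2M/Z embryo 7, and 2 without control 2. The 6 higher became 3 without control 6, 7 or 8 or Ehmt2M/Z embryo 4, 5, 7 or 9. Beside Snrpd3 and Rnps1, Prpf3 of the tri-snRNP was higher (log2 fold change 1.18, SE 0.29, adjusted p = 0.027), and Hnrnpab was lower (log2 fold change -1.101, SE 0.27, adjusted p = 0.027). Prpf3 lost its call without Ehmt2M/Z embryos 4, 7 or 9, and Hnrnpab without Ehmt2M/Z embryos 1, 4 or 9 (highest adjusted p = 0.075 and 0.074). Proteasome and CCT chaperonin genes were higher in 3 of 42 tested cases, 7.14% beside 2.83% of all genes, and lower in 0 (4 at an unadjusted p under 0.05, 3 by DESeq2). Psmd4, a ubiquitin receptor of the proteasome, had 672, 662, 507, 470.5 and 805 CPM against 84.5 to 314 CPM with a median of 239 (log2 fold change 1.51, SE 0.29, adjusted p = 0.0094), and Psmc5, an ATPase of its base, 258 to 415 CPM against 54.8 to 212 CPM (log2 fold change 1.28, SE 0.29, adjusted p = 0.017).

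Mitochondrial proteins encoded in the nucleus were called at a share near or under the background of all genes. Of 77 tested mitochondrial ribosomal proteins, 2 were upregulated and 3 downregulated (6.49% beside 6.21% of all genes), with a median of 0.10. The 3 became 1 without Ehmt2M/Z embryo 1 or 4, and the 2 became 0 without Ehmt2M/Z embryo 7 and 4 without control 5. Mrpl21 (ENSMUSG00000024829, chromosome 19, 3282901 to 3292837) stood out with 27.4, 15.7, 17.9, 19.4 and 21.1 CPM in Ehmt2M/Z against 65.2 to 111 CPM with a median of 86.2 in Ehmt2Cntr+/+ (log2 fold change -2.15, SE 0.27, adjusted p = 0.0017). Every mutant lay below every control. Exons of Ighmbp2 overlap its own, and the counting did not use strand, so that reads shared by both genes cannot be told apart. Mrps24 was lower (log2 fold change -1.45, SE 0.33, adjusted p = 0.02) and Mrpl38 higher (log2 fold change 1.55, SE 0.35, adjusted p = 0.019), calls that were lost without Ehmt2M/Z embryos 1 or 4 and without Ehmt2M/Z embryos 5 or 7, respectively (highest adjusted p = 0.06 and 0.058). Of 75 tested respiratory chain subunits, 1 rose and 2 fell (4.00% beside 6.21%), with a median of -0.04. Cox5a, of cytochrome oxidase, had 49.6, 42.5, 91.7, 70.4 and 49.6 CPM against 147 to 373 CPM with a median of 216 (log2 fold change -2.01, SE 0.33, adjusted p = 0.0038), and Uqcrfs1, the iron-sulfur protein of complex III, 62.7, 48.2, 115, 103 and 63.3 CPM against 99.1 to 359 CPM with a median of 223 (log2 fold change -1.55, SE 0.33, adjusted p = 0.014).

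Transcripts inherited from the oocyte were changed in few cases. Of 50 tested members, 2 were upregulated and 1 downregulated (6.00% beside 6.21% of all genes), with a median of 0.21. Khdc3 (ENSMUSG00000092622, chromosome 9, 73101836 to 73104438), a protein of the subcortical maternal complex, had 2.83, 3.35, 1.82, 6.83 and 0.709 CPM in Ehmt2M/Z. It had 17.6 to 204 CPM with a median of 58.6 in Ehmt2Cntr+/+ (log2 fold change -4.601, SE 0.70, adjusted p = 0.0029). The groups did not overlap, and 34.1% of its 50-base windows occur in another gene. Omt2b, an oocyte transcript, went up with 51.1, 35.8, 54.2, 24.8 and 139.8 CPM against 0.410 to 14.6 CPM with a median of 7.34 (log2 fold change 3.07, SE 0.68, adjusted p = 0.017), and 35.2% of its windows occur in another gene, mostly Omt2a. Oosp1, an oocyte-secreted protein, had 56.4, 91.4, 32.98, 70.2 and 48.6 CPM against 0.149 to 27.5 CPM with a median of 6.49 (log2 fold change 2.63, SE 0.70, adjusted p = 0.04). Omt2b lost its call without Ehmt2M/Z embryo 9. Oosp1 lost its call without control embryos 2, 6, 8 or 9 or without Ehmt2M/Z embryos 1, 4, 5, 7 or 9 (highest adjusted p = 0.098). Dppa3, the maternal factor Stella, stood at 2171 to 2661 CPM and 1239.6 to 2413 CPM (log2 fold change 0.41, SE 0.21, adjusted p = 0.29).

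Transcripts that peak at the 2-cell to 4-cell stages were called in 1 of 20 tested cases, 5.00% beside 6.21% of all genes, with a median of 0.44 beside -0.07 over all genes and 14 of the 20 above 0. Of the 40 members 16 were measured and not tested. The called gene was Klf17, a Krüppel-like factor, with 516, 396, 278, 172 and 441 CPM against 16.5 to 171 CPM with a median of 101 (log2 fold change 1.85, SE 0.52, adjusted p = 0.045). The call was lost without control embryos 7 or 8 or without Ehmt2M/Z embryos 1, 4, 5 or 9 (highest adjusted p = 0.1). In the germline list, 0 of 37 tested genes were upregulated (2 at an unadjusted p under 0.05, 0 by DESeq2) and 1 was downregulated (3 without control 9), beside 3.38% of all genes. The gene that fell was Stk31, a kinase of germ cells, with 6.51, 13.1, 6.46, 8.33 and 6.96 CPM against 21.5 to 41.3 CPM with a median of 30.03 (log2 fold change -1.97, SE 0.38, adjusted p = 0.0086), without overlap. The piRNA protein Piwil2 stood at 48.7 to 106 CPM and 20.2 to 122 CPM (log2 fold change 0.12, SE 0.42, adjusted p = 0.92).

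**Figure D5:**
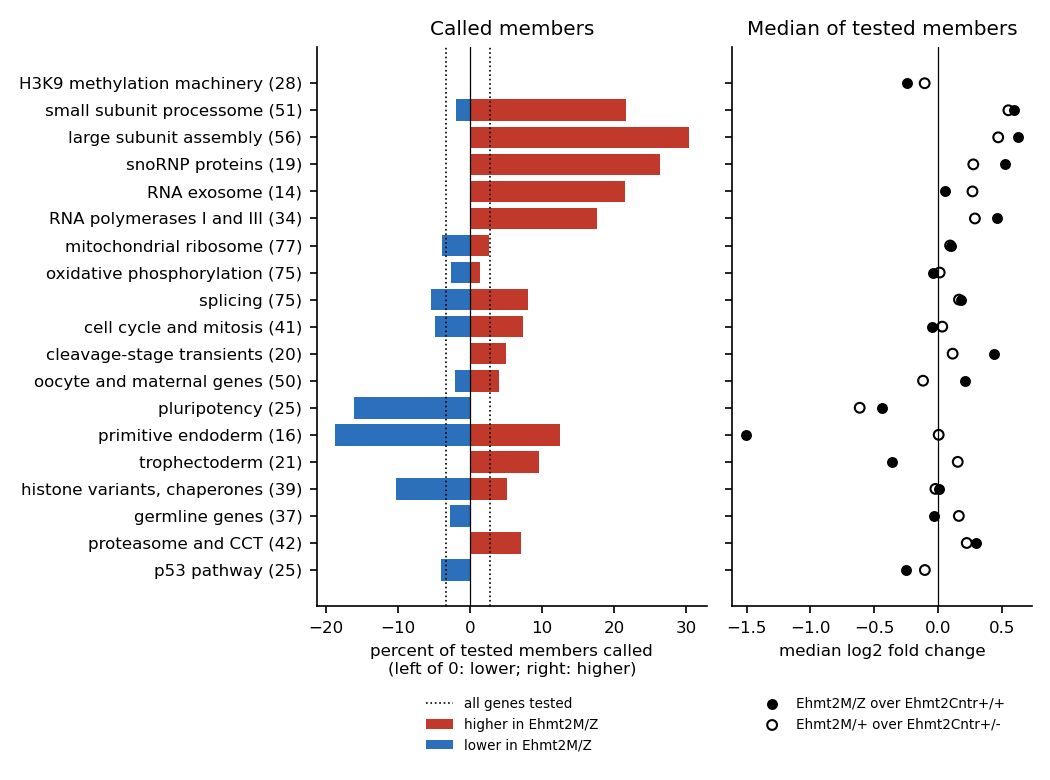
For 19 gene lists, with the number of tested members in brackets, bars give the percent of tested members called higher (right of 0) or lower (left of 0) in Ehmt2M/Z, dotted lines give the 2.83% and 3.38% of all genes, and dots give the median log2 fold change in Ehmt2M/Z over Ehmt2Cntr+/+ (filled) and in Ehmt2M/+ over Ehmt2Cntr+/- (open). The 5 ribosome assembly lists reach 17.6% to 30.4% higher, and 0 of 28 members of the H3K9 list are called.

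Without Ehmt2M/Z embryos 1 and 4, the calls were 3 higher and 0 lower for splicing, 2 higher and 1 lower for the cell cycle, 1 higher and 1 lower for histones and chaperones, and 0 for proteasome, trophectoderm, primitive endoderm, pluripotency and respiratory chain. The oocyte, p53 and mitochondrial ribosome lists each had 0 higher and 1 lower, and the germline and cleavage-stage lists had 0.

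Whether the same genes moved in embryos that keep a zygotic copy was read from embryos outside the comparison, 5 Ehmt2M/+ and 3 Ehmt2Cntr+/-. These 8 share no embryo with the 11 above, but came from mothers of the same genotypes. As the labels give no mother or litter, embryos of both comparisons may be littermates, and the part of this in a shared direction was not tested. In the fit of these 8 alone 1 of 13401 genes was called (0.00746%; 906 at an unadjusted p under 0.05 and 75 by DESeq2). Of the 734 genes, 729 were tested there, and 670 of them (91.9%) had the same direction, 309 of 331 upregulated and 361 of 398 downregulated ones. Over all 11584 genes tested in both fits 65.4% had the same direction. The median log2 fold change of the 331 upregulated genes was 0.72 in the Ehmt2M/+ comparison beside 1.34 in Ehmt2M/Z, and that of the 398 downregulated genes -0.72 beside -1.49. As the 734 were chosen by their size in Ehmt2M/Z, their larger values there are in part given by that choice. The oviduct marker Ovgp1 was also high in some of these embryos, with 893, 2723, 132, 23.4 and 9.52 CPM in Ehmt2M/+ and 5.15, 0.772 and 399.5 CPM in Ehmt2Cntr+/-, and its part in the shared direction was not tested.

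For named genes the 2 comparisons gave these values side by side. Nolc1 had log2 fold changes of 1.84 and 1.13, Nop2 2.06 and 1.09, and Poldip3 1.89 and 0.93, in Ehmt2M/Z and Ehmt2M/+ respectively. Among downregulated genes, Mrpl21 had -2.15 and -1.93, Rnf126 -2.54 and -2.99, and Klf5 -1.47 and -1.52. Klf10 was the gene among the 24 top genes with opposite signs, at -3.08 and 0.86. In embryos, Klf10 had 55.8, 17.8, 10.2, 45.5 and 163 CPM in Ehmt2M/+ and 14.7, 28.6 and 54.1 CPM in Ehmt2Cntr+/-. Fgfr1 had -1.72 and -2.26, Gata6 -1.95 and -1.51, and Gata4 1.09 and 0.06. The 174 ribosome assembly genes had medians of 0.53 and 0.41, and the pluripotency list -0.44 and -0.61. For primitive endoderm the medians were -1.51 and 0.0045.

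Whether the effect differed between the 2 settings was tested as an interaction over all 19 embryos. With edgeR 0 of 15224 genes were called, 1017 (6.68%) had an unadjusted p under 0.05 and the smallest adjusted p was 0.658, while DESeq2 called 83. For Klf10 the unadjusted p was 1.9e-04 and the adjusted p 0.658. A difference between embryos without any functional copy and embryos with 1 zygotic copy was thus not detectable for single genes at this number of embryos by edgeR, which does not show that the 2 genotypes act alike.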

How the data were processed

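RNA-seq counts of single embryos were used as the authors deposited them: whole-number counts of reads per gene, not normalized. Per the file headers, featureCounts 1.5.0-p1 counted reads on exons of Ensembl release 82 (GRCm38), without strand, with an overlap of at least 10 bases, for every gene a read overlaps and with multi-mapping reads kept. The submitters' processing notes name TopHat2, featureCounts and DESeq2, and the methods describe SeqMonk counts for genes, so the aligner behind these files is not settled. Reads were single-end 50 bp. Of 34937 genes, 34599 had a symbol in the gene name table used. Rows without one held 0.13% to 0.19% of counts and stayed in the tests.

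Counts of Ehmt2M/Z and Ehmt2Cntr+/+ were fitted with edgeR 4.0.16 in R 4.3.3 (filterByExpr, TMM, quasi-likelihood test, Benjamini-Hochberg threshold 0.05), without covariates. The standard error (SE) is the log2 fold change over the square root of F. CPM used TMM factors over all 19 embryos. Single values were compared by exact permutation (scipy 1.17.1), and the PCA took log2 CPM (prior count 2). Named genes were Ehmt2 and Ehmt1, 12 protein-coding genes per direction by smallest p among calls whose log2 change was 1 or more in size (unnamed, Gm and Rik genes were skipped, 4 higher and 1 lower), of each list up to 4 called and 2 not called members, lineage genes and markers. Nol6, Pes1, Bop1, Wdr12, Nop53, Cdk2, H2afy and Nasp were named from their lists after their values were seen. The embryos, lists and tests were chosen with earlier results of these data known. Embryo numbers do not pair the groups (correlations of deviations 0.023, 0.036 and 0.049 for the 3 shared numbers). Between any pair of the 11 embryos r was 0.722 to 0.9003, so that no file repeats another. Alternatives were RLE and upper-quartile scaling, DESeq2 1.42.0, other filters, all 19 embryos in the fit, replicate blocks, sex, thinned counts, mitochondrial genes left out, exon length, and each embryo left out. Scripts were tested on simulated counts of the 11 embryos. With edgeR, 0 of 200 genes changed 2-fold and 73 of 200 changed 4-fold (36.5%) were recovered, and 0 were called where none changed. With DESeq2, 33 and 98 of 200 were recovered among 56 and 125 calls, and 8 were called where none changed. A gene that edgeR did not call may therefore still have changed.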

Additional observations from a re-analysis of the deposited data

Results flagged for a closer look

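In some groups of 5 or 6 embryos, 1 embryo stood apart by Dixon's test at the 95% level, among 92 groups of values examined, where chance flags about 1 in 20. Among ribosome assembly genes, Nop2 had 228 CPM in control 6 against 97.4 to 135 CPM in the other 5 controls, and Fbl 4.10 CPM in the same embryo against 1.24 to 2.28 CPM. Kif22 had 261 CPM in control 5 against 138 to 182 CPM, and Ptdss2 573 CPM in control 2 against 236 to 336 CPM. In each of these the high control was still below every Ehmt2M/Z embryo. Control 7 had 182 CPM of Chchd10 against 27.0 to 61.5 CPM, and 204 CPM of Khdc3 against 17.6 to 68.7 CPM, both on the side away from the mutants. Ovgp1 had 29.3 CPM in control 9 against 0.0437 to 4.16 CPM in the others, which is above Ehmt2M/Z embryo 7. Hnmt had 0.0584 CPM in control 9, a single count, and 0 in the other controls. Among the mutants, Fgfr1 had 75.4 CPM in Ehmt2M/Z embryo 9 against 30.1 to 39.2 CPM.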

How the results depend on the processing

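The 734 calls became 1512 with DESeq2, and with embryo number as a replicate block 0 (11 embryos; 1421 genes at an unadjusted p under 0.05) and 77 (all 19 embryos). The numbers did not pair the embryos, so a call lost under the block is not a weaker effect. Of alternatives chosen after seeing the data, 98 genes were called without Ehmt2M/Z embryos 1 and 4, which leaves 3 mutants, 2 with the Ovgp1 level as a covariate and 76 with the exon length slope as a covariate. Both covariates move with the groups, and 732 of the 734 kept their direction with Ovgp1 (1473 genes at an unadjusted p under 0.05). The 734 were chosen in these same embryos, so that a kept direction is no separate support. Single embryos left out gave 333 to 752 calls. The other settings gave 655 to 1024 calls (623 with a log2 fold change of at least 1), and RLE and upper-quartile scaling shared 702 and 657 of the 734.

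The 42 ribosome assembly genes called higher became 0 and 6 under the 2 replicate blocks, 4 without Ehmt2M/Z embryos 1 and 4, 0 with Ovgp1 and 1 with exon length as covariates, and 26 to 44 with single embryos left out. The median log2 fold change of all tested members of the 5 ribosome assembly lists, called or not, lay between 0.36 and 0.67 over all these fits. The interaction calls became 83 with DESeq2 and were 0 to 1 with single embryos left out, the 1 without Ehmt2Cntr+/- embryo 10. The share of the 734 with the same direction in other embryos was 85.9% to 94.1% with 1 of those 8 left out. The sign of Ehmt2 and its side of the threshold did not change with RLE or upper-quartile scaling, and those of the first component did not with a prior count of 0.5 or 5 or with the 500 most variable genes. At this depth 3 counts limit a gene to 0.0948 to 0.283 CPM.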

Other observations

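These genes were named after their values were seen. Of 28 tested mitochondrially encoded genes, 6 were called (1 higher and 5 lower), beside 6.21% of all genes. The 12S rRNA mt-Rnr1 was higher, with 3672, 1639, 20035, 15315 and 8200.4 CPM in Ehmt2M/Z against 1015 to 3423 CPM with a median of 2110.4 in Ehmt2Cntr+/+ (log2 fold change 2.197, SE 0.50, adjusted p = 0.019; edgeR). The mutants overlapped the controls, embryo 5 had the highest value, and without it the gene was not called (adjusted p = 0.062). The complex I subunit mt-Nd4 was lower, with 11007, 7243, 6271, 9502 and 5502 CPM against 9692 to 22787 CPM with a median of 13584 (log2 fold change -0.9954, SE 0.28, adjusted p = 0.045). Of its 50-base windows 62.2% occur in another gene. It passed in 3 of 11 fits and was lost without control embryos 5, 8 or 9 or without Ehmt2M/Z embryos 1, 4, 5, 7 or 9. The other 4, mt-Nd6 and the tRNA genes mt-Tl1, mt-Ta and mt-Tm, were lower too, and passed in 2, 6, 3 and 1 of 11 fits without 1 embryo. In the Ehmt2M/+ embryos mt-Rnr1 had a log2 fold change of 2.46 and mt-Nd4 of 0.02 against Ehmt2Cntr+/-.

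While genes of ribosome assembly were higher, 3 overlapping annotated genes on chromosome 17, within a locus known for rRNA-like sequence, were lower in Ehmt2M/Z. Gm42418 (39846958 to 39848788) had 62.9, 76.03, 62.7, 39.8 and 67.1 CPM against 69.01 to 431 CPM with a median of 289 (log2 fold change -2.19, SE 0.39, adjusted p = 0.0052; edgeR), and CT010467.1 had 118, 84.3, 60.4, 45.1 and 94.1 CPM against 132 to 799 CPM with a median of 521 (log2 fold change -2.75, SE 0.41, adjusted p = 0.0027). AY036118 within them moved by -2.76. The 3 genes share reads, as 94.9% of 50-base windows of Gm42418, 69.1% of those of CT010467.1 and all of those of AY036118 occur in another gene, so that they count as 1 observation.

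Among transcription factors, Klf8 (7.17, 17.2, 13.7, 13.8 and 7.99 CPM against 33.4 to 107 CPM with a median of 73.6; log2 fold change -2.57, SE 0.40, adjusted p = 0.0031; edgeR) and Foxo3 (30.5, 23.03, 29.8, 33.2 and 17.7 CPM against 49.3 to 122 CPM with a median of 95.2; log2 fold change -1.79, SE 0.29, adjusted p = 0.0038) were lower in every mutant than in every control, as was the ubiquitin-like conjugating enzyme Ube2f (log2 fold change -2.14, SE 0.32, adjusted p = 0.0029). Of 357 tested X-linked genes, 8 were called (2.24% beside 6.21% of all genes). Of 148 tested genes on chromosome 17 from 29898469 to 39914052, around Ehmt2, 12 were called (8.11%), and of 85 in the narrower stretch from 33898469 to 35914052 5 were called (5.88%), beside 6.21% of all genes.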
